A study of Homo sapiens with 7 samples.

Results

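The genes described here are 10 targets of Wnt/β-catenin signalling, AXIN2, LGR5, NKD1, SP5, TBX3, ZNRF3, RNF43, TCF7, LEF1 and GLUL. They were chosen by symbol, as the rows of the expression table whose gene field holds one of these names, and each of the 10 had 1 row among the 22093 named loci with a strand on chromosomes 1 to 22, X and Y. The list was drawn up with earlier results of these data known, so its counts beside all named loci are a description. The samples are 7 libraries of HepG2, a human liver cancer cell line that carries an activated β-catenin, and comprise 1 of native MNase-Seq, 1 of RNA-Seq and 5 of ChIP-Seq against the active marks H3K4me3, H3K9ac and H3K27ac and the silencing marks H3K9me3 and H3K27me3. All came from this 1 line, and the sample titles name no treatment. There was 1 library per assay with 2 columns of RNA-Seq values (here run 1 and run 2), so no groups were compared and no P value was computed. Whether the runs are separate cultures is not stated in the sources used here, and their spread may be technical.

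In the canonical Wnt pathway, secreted WNT proteins bind Frizzled and LRP receptors, which stops a destruction complex from breaking down β-catenin, and β-catenin then enters the nucleus and acts with TCF/LEF factors at its target genes. Many of these targets are themselves brakes on the pathway. AXIN2 is a scaffold of the destruction complex, NKD1 binds Dishevelled, and ZNRF3 and RNF43 are related ubiquitin ligases of the cell surface that remove Frizzled receptors. LGR5 is a receptor for R-spondins and a marker of stem cells, SP5 and TBX3 are transcription factors, and TCF7 and LEF1 are DNA-binding partners of β-catenin. GLUL, glutamine synthetase, marks the hepatocytes around the central vein of the liver, where Wnt signalling is active.

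DNA recognised by TCF/LEF factors holds a core written CTTTGA, or TCAAAG on the other strand. Of the 10 genes, 5 were matched by symbol to the promoter sequences of RefSeq (GRCh38.p14), namely SP5, RNF43, TCF7, LEF1 and GLUL, and the 250 bases before each annotated start were searched for this core on both strands. The core was chosen after these sequences had been seen. SP5 had 3 copies, 147, 109 and 83 bases before the start, and the entries of RNF43, TCF7, LEF1 and GLUL had 0. Among all 35116 promoter entries of this length, 11.2% had at least 1 copy and 23 entries (0.0655%) had at least 3. Because of the late choice of the core these shares are a description, and they were not adjusted for base content. Sequences of SP5, LEF1 and GLUL are shown because they hold the most copies of the core, belong to the silent gene and belong to the most highly expressed gene of the list. They are written 5′ to 3′ with the core in capitals, from chr2:170715087-170715336 on the plus strand for SP5, chr4:108166302-108166551 on the minus strand for LEF1 and chr1:182391791-182392040 on the minus strand for GLUL.
SP5: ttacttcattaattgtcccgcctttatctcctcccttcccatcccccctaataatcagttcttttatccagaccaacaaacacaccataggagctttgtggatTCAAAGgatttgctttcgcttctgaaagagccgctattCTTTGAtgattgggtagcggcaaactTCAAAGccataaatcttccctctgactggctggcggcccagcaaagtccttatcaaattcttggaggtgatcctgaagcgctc
LEF1: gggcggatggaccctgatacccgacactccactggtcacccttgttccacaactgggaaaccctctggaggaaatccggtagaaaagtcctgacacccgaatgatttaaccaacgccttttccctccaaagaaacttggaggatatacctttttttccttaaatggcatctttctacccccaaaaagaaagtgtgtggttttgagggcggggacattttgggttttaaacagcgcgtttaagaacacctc
GLUL: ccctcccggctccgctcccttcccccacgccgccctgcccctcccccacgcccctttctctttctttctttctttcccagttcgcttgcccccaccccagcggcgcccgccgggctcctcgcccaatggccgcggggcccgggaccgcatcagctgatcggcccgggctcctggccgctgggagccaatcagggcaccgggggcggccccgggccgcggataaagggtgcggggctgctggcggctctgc
The GLUL sequence was rich in G and C (74.8%, with 25 CpG), whereas SP5 (45.6%, 6 CpG) and LEF1 (47.6%, 8 CpG) lay below the median promoter, which had 58% and 11 CpG. A match of letters is not a bound site, and the start used by RefSeq need not be the start used in these cells.

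The RNA-Seq values are FPKM, fragment numbers scaled by the authors to transcript length and library size, so levels can be set side by side between genes, and a gene with a mean FPKM of at least 1 is called expressed. By this limit 9 of the 10 genes were expressed, beside 51.4% of named loci, and the median FPKM was 26.4 for the 10 genes and 1.25 for named loci. Over the rows with 1 symbol and coordinates of their own, the median was 24.9 for 7 of the 10 genes and 0.461 for 13662 named loci, of which 46.7% were expressed. For GLUL the FPKM was 128.6 (run 1) and 122.7 (run 2). This was the highest of the 10 and above 97.5% of named loci. The row with RNF43 had 84.3 and 80.5, and it is merged with SUPT4H1, a transcription elongation factor gene, so the share that belongs to RNF43 is unknown. SP5 had 81.1 in run 1 and 75.2 in run 2, and its runs overlapped those of the RNF43 row. NKD1 followed with an FPKM of 56.7 and 56.1. Thus the highest levels were those of a liver enzyme, a transcription factor, a Dishevelled inhibitor and the merged RNF43 row.

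The FPKM of LGR5 was 27.6 in run 1 and 28.1 in run 2. TBX3 had 24.8 and 25.0, and AXIN2, a widely used readout of the pathway, had 19.4 and 18.9. AXIN2 was above 82.0% of named loci. ZNRF3 was listed at 15.7 and 15.2, far from the merged RNF43 row that holds its paralogue. TCF7 was the lowest of the expressed genes with 8.55 and 8.92. LEF1 stood apart with 0.0511 in run 1 and 0.0434 in run 2, below the limit, and only 32.2% of named loci were lower. Apart from RNF43 and SP5, no neighbours in this order overlapped between runs. The runs differed by at most 0.109 on the log2 scale in the 9 expressed genes, while the median difference was 0.0630 over 11306 named loci at an FPKM of at least 1.

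**Figure D1:**
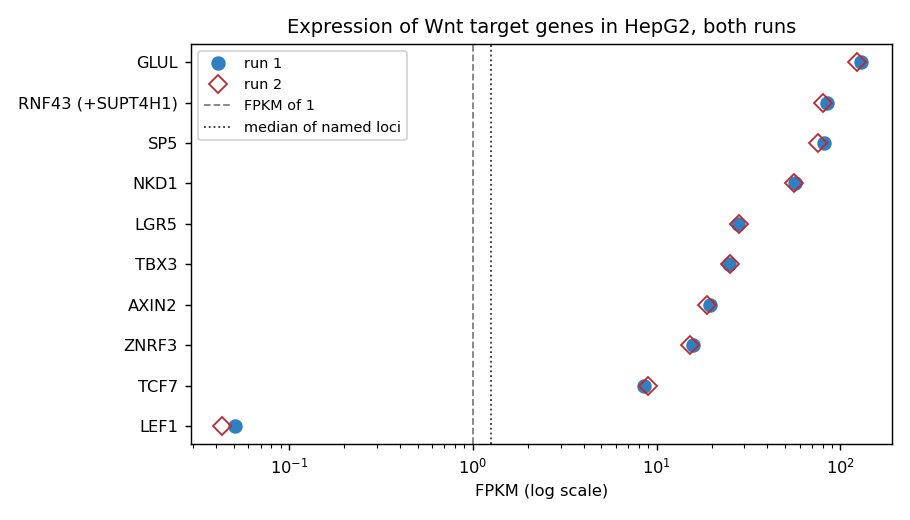
FPKM of the 10 Wnt target genes in run 1 (filled circles) and run 2 (open diamonds), on a log axis, with dashed and dotted lines at an FPKM of 1 and at the median of named loci (1.25). All genes but LEF1, at 0.0511 and 0.0434, lie to the right of both lines.

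Histone marks were read at single nucleosome positions. The position list of the MNase-Seq library holds 14217405 positions of 140 bp, and a peak of a mark carries the identifier of 1 position, so each position has an exact combination of marks but no height, and the reads behind it are unknown. Neighbouring positions may overlap and are not independent nucleosomes. The nucleosome that carries H3K4me3, H3K9ac and H3K27ac together, called "T" in the study, is the mark of active promoters, and it was counted within 2 kb of the TSS, the end of the listed locus (hg19) at which the gene starts. At least 3 "T" were found at 7 of the 10 genes, beside 27% of named loci. The median was 4.5 "T" for the 10 genes, 0 for named loci and 2 for named loci at an FPKM of at least 1. For named loci at that FPKM with 1 symbol and coordinates of their own, the median was 3. Of the 35 "T" in all, 30 remained when overlapping positions were counted once, and 7 genes still had at least 3.

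Among the pathway inhibitors, AXIN2 (chr17:63524679-63557762, minus strand) had 7 "T" within 2 kb. They belonged to a stretch of 13 marked positions from 0.189 to 3.23 kb downstream of the TSS, of which 11 were "T" and 2 carried H3K4me3 alone. A stretch here joins marked positions whose midpoints are at most 1000 bp apart. NKD1 (chr16:50581572-50683337, plus strand) had 6 "T" within 2 kb in a stretch of 11 positions from 0.261 to 3.05 kb, in which the last 3 carried H3K4me3 alone. ZNRF3 (chr22:29279889-29453475, plus strand) had 4 "T", with 3 downstream and 1 at 843 bp upstream. RNF43 (chr17:56422536-56495065, minus strand) had 5 "T" within 2 kb, and its stretch was the longest of all at the 10 TSS, with 17 positions over 4605 bp, 11 of them "T". All 4 inhibitors therefore had at least 4 "T" within 2 kb of the TSS, and at ZNRF3 the stretch inside the gene held 3 of them.

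LGR5 (chr12:71832267-71980092, plus strand) had 5 "T" within 2 kb, the first at 969 bp, in a stretch of 10 positions that began with H3K27ac alone at 366 bp. Of the transcription factor genes, TBX3 (chr12:115107928-115122492, minus strand) had 5 "T" between 821 and 1891 bp, and its stretch went on with 1 more "T" and 3 positions with H3K4me3 alone. GLUL (chr1:182350838-182361341, minus strand) had only 3 "T", at 165 bp upstream and at 105 and 550 bp downstream. Further into GLUL came 5 positions with H3K4me3/H3K9ac and no H3K27ac, and then 1 with H3K4me3 alone. GLUL, the gene with the highest FPKM of the 10, thus had the fewest "T" of the 7 genes with any within 2 kb.

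At the 3 other genes no "T" lay within 2 kb of the listed TSS, and 2 of them, TCF7 and SP5, were expressed. Among named loci at an FPKM of at least 1, 28% had no "T" there. TCF7 (chr5:133450388-133484099, plus strand) has coordinates of its own. Its listed locus is 33711 bp long, whereas the TCF7 gene of RefSeq spans 39993 bp, so its listed TSS is not certain either. Within 2 kb TCF7 had 1 position with H3K27me3 at 1462 bp upstream, 1 with H3K4me3/H3K9ac at 255 bp upstream and 1 with H3K4me3 alone at 1088 bp downstream. No position was called between 255 bp upstream and 938 bp downstream of its TSS, a gap of 1193 bp between midpoints and the widest of the 10. The nearest "T" of TCF7 were 3 positions 15.3 to 15.5 kb upstream. For SP5 (chr2:171556633-171576924, plus strand) the listed TSS is uncertain, because 3 rows share the coordinates, among them LOC440925, and the locus is 20291 bp long, whereas the SP5 gene of RefSeq spans 2742 bp. Its 14 "T" lay 11.8 to 17.4 kb downstream of the listed TSS, with 9 of them in a single stretch of 2250 bp. With "T" counted over the locus plus 20 kb, a choice made after the data were seen, 9 of the 10 genes had at least 3, beside 55.7% of named loci, and LEF1 had 0. Longer loci have more room for "T", and the median listed length was 53.1 kb for the 10 genes and 36.5 kb for named loci.

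**Figure D2:**
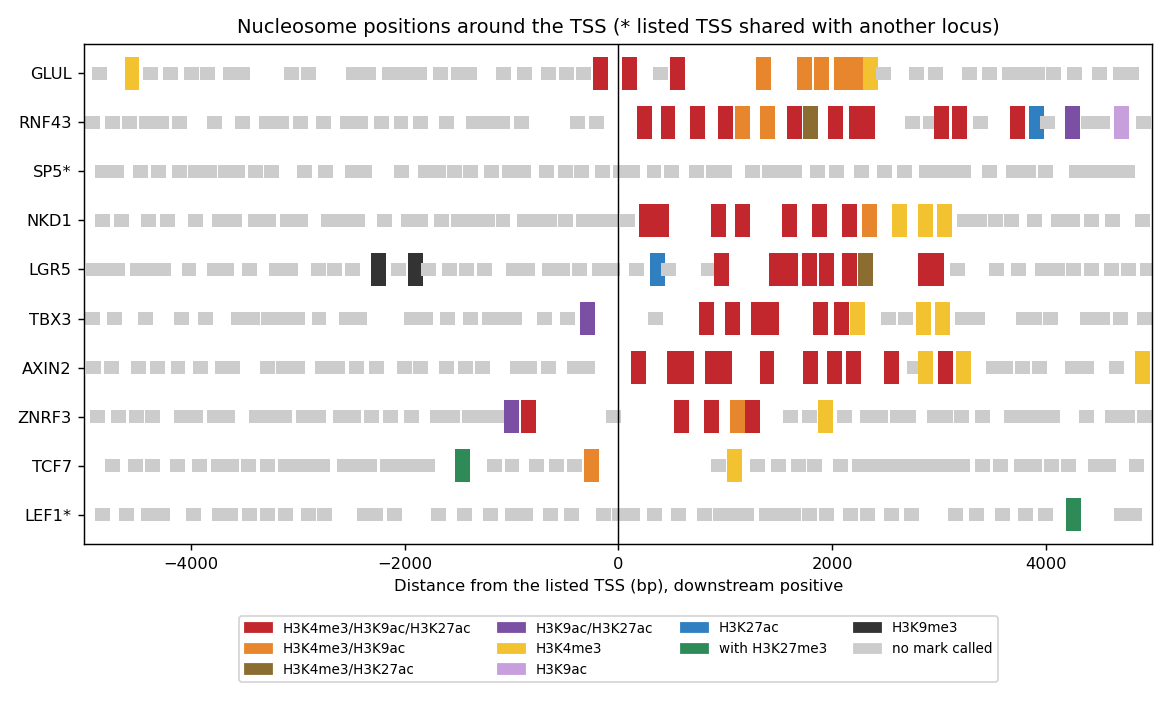
Nucleosome positions within 5 kb of the listed TSS of each gene, ordered by FPKM, with distance in bp on the x axis. Tall boxes are marked positions coloured by their combination of marks, and short grey boxes are positions with no mark called. Red boxes ("T") lie to the right of the TSS except at GLUL and ZNRF3, where 1 each lies to the left, and SP5, TCF7 and LEF1 show none. An asterisk marks a listed TSS shared with another locus.

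Of the 35 "T" within 2 kb of these TSS, 33 lay downstream and 2 upstream (94.3% downstream), beside 75.6% downstream over named loci. The 2 upstream belonged to ZNRF3 and GLUL. An unnamed locus with an FPKM of 5.25 and 5.65 (chr22:29279445-29279804) ends just before the ZNRF3 TSS, and its own inferred TSS is at that end, so the start to which the upstream "T" of ZNRF3 belongs cannot be told apart. At AXIN2 no position was called from 294 bp upstream to 189 bp downstream of the TSS, and at TBX3 from 294 bp upstream to 350 bp downstream. At ZNRF3 the widest gap was upstream, from 843 to 43 bp before the TSS. A gap in the list says only that no position was called there.

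The window of each gene was then widened to the listed locus plus 20 kb on both sides. The 10 windows held 6076 positions, and 266 of these (4.38%, exact 95% binomial interval 3.88 to 4.92, Clopper-Pearson, counting error only) carried at least 1 mark, beside 1.43% in the genome. The genome is mostly outside such windows, and per window the median share was 4.38% for the 10 genes and 2.31% for named loci. For the whole genome the paper reports a higher share of nucleosomes with histone modification than the lists used here give. The reason for this difference was not tested. Of the 266, 50 lay within 2 kb of the gene's own listed TSS, 11 within 2 kb of another named TSS and 205 farther from any. The listed TSS is uncertain for SP5 and LEF1, and the start of SUPT4H1 in the RNF43 row is unknown. The 205 include all 18 marked positions of SP5, of which 14 were "T". They also include the 4 positions with H3K4me3 at LEF1 and the group of 9 at 64.7 to 66.4 kb in the RNF43 row. Some of the 205 may therefore lie near a gene start. TBX3 had the highest share with 28 of 265 positions (10.6%, 7.14 to 14.9), and 98.7% of named loci had a lower one. The row of RNF43 had 44 of 626 (7.03%, 5.15 to 9.32) and ZNRF3 64 of 1110 (5.77%, 4.47 to 7.30). LEF1 had the lowest with 10 of 875 (1.14%, 0.549 to 2.09). The other 6 genes lay between 2.82% (LGR5) and 5.37% (SP5), with intervals that overlap each other. All these intervals treat positions as independent, whereas marked positions come in stretches, so they are likely too narrow.

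H3K27ac without H3K4me3, the usual state of active enhancers, was found at 99 positions farther than 2 kb from the TSS, and 67 of them were inside the listed loci. The expression table gives no exons, so exons and introns were not told apart. At 7 of the 10 genes at least 1 such position carried H3K27ac alone, beside 43.7% of named loci. The count was not adjusted for length, and the median listed length was 53.1 kb for the 10 genes and 36.5 kb for named loci. ZNRF3 had 40 of the 99, with 34 inside its locus. The largest of its groups were 9 marked positions from 97.5 to 99.6 kb (chr22:29377352-29379581) and 7 from 147 to 148 kb downstream of the TSS, and each of these also held 1 "T". Another 11 marked positions at 187 to 190 kb lay around the TSS of KREMEN1, a neighbouring gene beyond C22orf31, which codes for a co-receptor of the Wnt inhibitor DKK1 and was itself expressed with an FPKM of 8.43 and 7.75.

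NKD1 had 7 positions with H3K27ac alone in a row from 69.3 to 71.1 kb inside the locus (chr16:50650772-50652771) and 4 more from 9.11 to 7.80 kb upstream of its TSS. Those upstream lie inside an unnamed locus (chr16:50539761-50581187) with an FPKM of 9.11 and 9.36, so the gene to which they belong cannot be told apart. LGR5 had 6 with H3K27ac alone from 97.2 to 99.0 kb (chr12:71929442-71931301), its largest group away from the TSS. AXIN2 had 4, 45.1 to 46.1 kb downstream of the TSS and past its far end. TCF7 had 5 just past its far end, from 34.5 to 35.8 kb, and a mixed group of 7 positions 16.2 to 15.3 kb upstream. These groups of 4 to 7 positions with H3K27ac alone spanned at most 2000 bp each. Other positions with H3K27ac alone lay singly, at 34, 54, 83.8 and 114 kb in LGR5 and at 17.3 and 16.1 kb upstream of NKD1, the latter inside the same unnamed locus.

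TBX3 differed in that its second large group carried H3K4me3. It comprised 9 positions from 14.8 to 17.3 kb (chr12:115105142-115107771), just past the far end of the locus, and 6 of them were "T", as many as in the stretch at the TSS. The table lists no other locus in this window. A further 5 positions, the first at 27.1 kb, carried H3K27ac, 4 of them with H3K9ac. The RNF43 row also had a second group with H3K4me3, 9 positions with 5 "T" from 64.7 to 66.4 kb, inside the merged locus, for which the table does not give the start of SUPT4H1. Between these ends, RNF43 had 4 positions with H3K27ac alone from 52.5 to 53.6 kb. GLUL had no position with H3K27ac beyond 2 kb, and outside the stretch at its TSS only 1 marked position, with H3K4me3 alone 4.55 kb upstream.

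**Figure D3:**
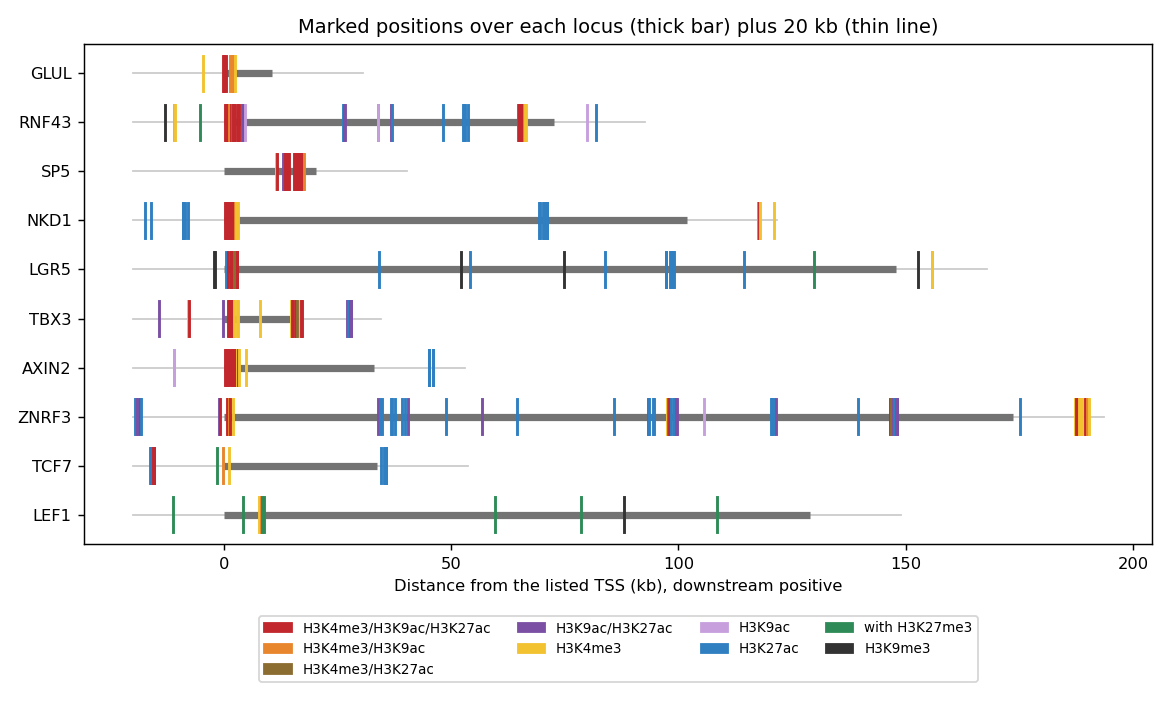
Marked positions over each locus plus 20 kb, with distance from the listed TSS in kb on the x axis. Thick grey bars are the listed loci, thin lines the flanks, and vertical ticks the marked positions coloured by combination. Of the red ticks ("T"), 35 lie within 2 kb of the TSS and 52 farther away, among them those at SP5. Blue ticks (H3K27ac alone) lie inside ZNRF3, NKD1, LGR5 and RNF43, and LEF1 shows green ticks (H3K27me3).

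The marks of silencing were most frequent at LEF1 for H3K27me3 and at LGR5 for H3K9me3. H3K27me3 was found in the windows of 4 of the 10 genes (39.5% of named loci) and H3K9me3 in those of 3 (38.6%). LGR5, RNF43 and TCF7 had 1 position each with H3K27me3. LEF1 (chr4:108968653-109097586, minus strand) had 7, and its window held no position with H3K27ac. Mixed nucleosomes were among them, 1 with H3K4me3/H3K27me3 and 1 with H3K4me3/H3K9ac/H3K27me3, combinations carried by 221 and 148 positions in the whole genome. Both lay in a group of 4 positions with H3K4me3, 7.80 to 8.87 kb inside the listed end (chr4:109088652-109089851), the only H3K4me3 of the window. As with SP5, the coordinates of LEF1 are shared, here with LOC641518, which was listed at an FPKM of 0 in both runs. The listed locus is 128933 bp long, whereas the LEF1 gene of RefSeq spans 121385 bp, so the listed TSS may not be that of LEF1. The group of 4 positions may therefore lie nearer to the start of LEF1 than its distance from the listed end shows. Nucleosomes with H3K4me3 and H3K27me3 are known as bivalent and are found at developmental genes that are silent but can be activated. With 1 ChIP-Seq library per mark, the same nucleosome and a mixture of cells cannot be told apart. LGR5 had 5 positions with H3K9me3, of which 2 lay just upstream of its TSS, at 2251 and 1901 bp, although the gene was expressed.

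In all, "T" made up 32.7% of the 266 marked positions of the 10 windows (87 positions) and 21.0% of marked positions in the genome. H3K27ac alone made up 28.2%, against 19.9%, and H3K9ac/H3K27ac 10.2%, against 4.21%. H3K4me3 alone was at 11.7% and 11.5%, and H3K4me3/H3K9ac at 6.39% and 7.45%. H3K27me3 alone made up 3.01% in the windows and 12.2% in the genome, and H3K9me3 alone 2.63% and 16.4%. The windows were chosen by gene name, 9 of the 10 lie around expressed genes, and they differ from the genome in gene content, so the shares are a description.

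**Figure D4:**
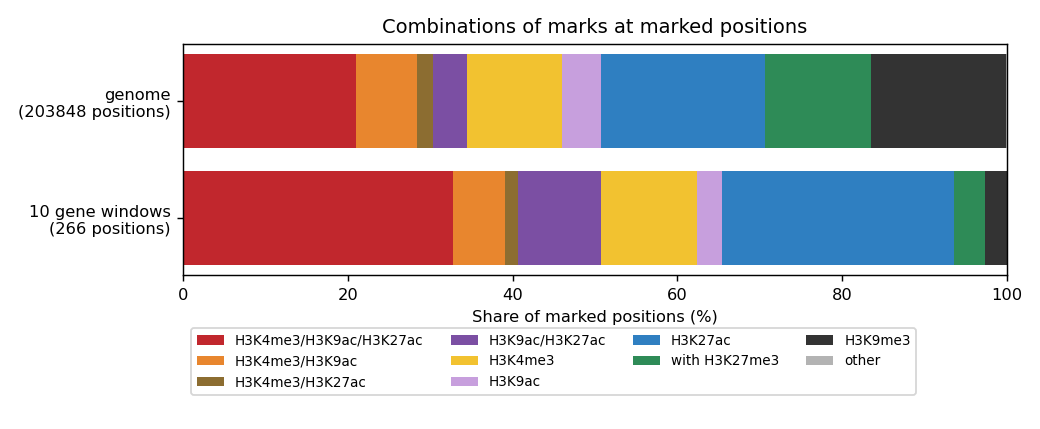
Share of marked positions (%) by combination of marks in the windows of the 10 genes (266 positions) and in the genome (203848 positions). The red ("T"), blue (H3K27ac alone) and violet (H3K9ac/H3K27ac) parts are wider in the windows, and the green and black parts (H3K27me3 and H3K9me3) are narrower.

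Other genes of the pathway were grouped by role. The counts of this and the following lists stand beside 51.4% of named loci expressed and 27% with at least 3 "T" within 2 kb. Of 19 WNT ligand genes 2 were expressed, WNT3 with an FPKM of 4.29 and 3.85 and WNT11 with 1.13 and 0.924, so that WNT11 was on both sides of the limit, and the next, WNT7B, had 0.276 and 0.197. None of the 19 had 3 "T" within 2 kb. Of 12 receptor genes 8 were expressed and 5 had at least 3 "T", led by FZD4 (43.5 and 44.4), LRP5 (26.1 and 24.3) and FZD5 (24.2 and 24.5). Of the 6 other genes of the R-spondin axis only LGR4 was expressed, and the 4 R-spondin genes had FPKM values of 0 to 0.0146. All 14 cytoplasmic regulators were expressed and 10 had at least 3 "T", with CSNK1A1 at 72.9 and 69.3, the row of GSK3A at 49.7 and 50.6 and that of DVL2 at 30.2 and 29.1, rows that GSK3A and DVL2 share with ERF and PHF23. Most ligand genes thus lay below the limit, while most receptor genes and the whole list of cytoplasmic regulators lay above it.

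Of 12 nuclear factors 9 were expressed, with CTNNB1, which codes for β-catenin, at 170.7 in run 1 and 168.9 in run 2, above 98.2% of named loci. Then came PYGO2, in a row with SHC1 (42.1 and 41.7), and TLE1, a co-repressor (21.5 and 20.3). Of 15 antagonists 6 were expressed. NOTUM, an enzyme that inactivates WNT proteins, had an FPKM of 101.5 and 94.5 with 4 "T" within 2 kb, and DKK1, which blocks LRP receptors, had 53.9 and 56.2 with 9 "T". The row of KREMEN2, shared with PAQR4, had 8.40 and 8.32. H3K27me3 was found in the windows of 9 of the 15, beside 39.5% of named loci. The listed coordinates of NOTUM, DKK1, FZD4, FZD5 and CCND1 are shared with another locus, so their TSS are uncertain too. Of 10 further genes often listed as Wnt targets, 6 were expressed, beside 51.4% of named loci. The highest were CCND1 (87.1 and 86.6), SOX9 (40.1 and 39.5) and BMP4 (38.4 and 36.6), which had 5, 9 and 8 "T", whereas ASCL2 was listed at 0 and EPHB3 had 0 and 0.0191.

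**Figure D5:**
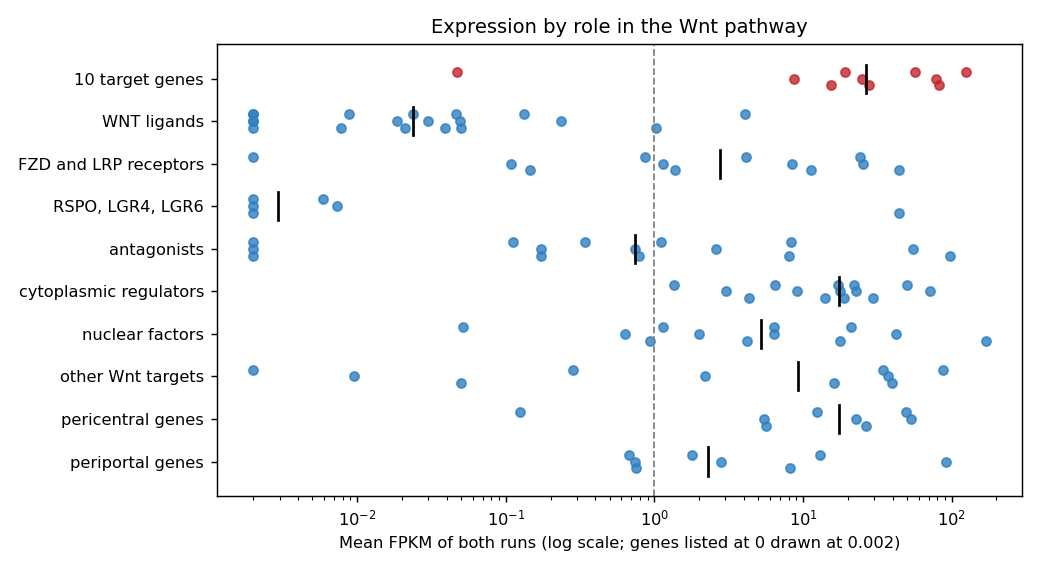
Mean FPKM of both runs for the 10 target genes (red) and for genes grouped by role in the pathway or zone of the liver (blue), on a log axis, with black bars at the medians and a dashed line at an FPKM of 1. Genes listed at 0 are drawn at 0.002. All R-spondins and 17 of 19 WNT ligands lie to the left of the line, and all cytoplasmic regulators to the right.

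Several of the 10 genes have paralogues with related roles. For LGR5 these are LGR4 and LGR6, of which LGR4 was higher than LGR5 with an FPKM of 43.9 and 44.5 and 7 "T", and LGR6 had 0.0117 and 0. AXIN1 had 9.19 and 9.01 with 2 "T", below AXIN2 in both runs. NKD2 had 1.44 and 1.27 with no "T", against 56.7 and 56.1 for NKD1, a mean of 1.35 beside 56.4. TBX2, whose coordinates are shared with another locus, had 5.94 and 7.33 and lay below TBX3. Among the 4 TCF/LEF genes, TCF7 (8.55 and 8.92) was the highest, followed by TCF7L2 (6.71 and 5.95, with 4 "T"), TCF7L1 (0.449 and 0.815) and LEF1, and each order held in both runs.

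Zones of the liver lobule were compared by gene lists. Of 8 genes of the pericentral zone, to which GLUL belongs, 7 were expressed with a median FPKM of 17.5, and of 8 periportal genes 5 with a median of 2.30. OAT, an enzyme on the path from ornithine to glutamate, had 52.1 and 54.6. RHBG, an ammonium transporter, had 49.7 and 49.1, and the row of SLC13A3, shared with TP53RK, had 26.0 and 27.5. CYP1A2 had 0.148 and 0.102. The periportal list was led by ASS1 of the urea cycle (94.0 and 89.9), then CPS1 (13.3 and 12.9) and GLS2 (7.95 and 8.47), so single genes of either zone reached high levels. The lists overlapped in FPKM and the difference was not tested.

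The label of a liver cell line was checked with marker genes. All 8 hepatocyte markers were expressed, with FPKM from 56.6 (FGB) to 10010 (ALB). Of markers of other cells, 0 of 3 endothelial and 0 of 4 leukocyte genes were expressed, 1 of 5 fibroblast genes passed the limit (COL1A2, 1.32 and 0.996), and of the cholangiocyte pair KRT19 had 113.4 and 105.7 and KRT7 0.0920 and 0.126.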

How the data were processed

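The 10 genes and all gene lists were chosen with earlier results of these data known. The authors aligned MNase-Seq and ChIP-Seq reads (BWA and hg19 in the submitters' processing notes), called positions with DANPOS and peaks with NUCLIZE (by P value, FDR and fold over input), and deposited coordinates with identifiers, without heights or read counts. For RNA-Seq, the authors deposited FPKM (TopHat2 2.1.0, Bowtie, HOMER 4.7 and edgeR in the notes, roles not given), in 2 columns that count as 1 replicate, with fold changes, a test statistic, a p-value and a q-value for the difference between these columns, not used here. The FPKM values add up to 857059 and 982212, and depth in reads is unknown.

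A peak marked the position whose identifier it carries. Of 30032 loci, the 22093 with a symbol, a usable status and a strand were the background. TSS were locus ends. The strand came from the RefSeq promoter table by symbol for 13640 loci, otherwise from the order of locus numbering, and where both existed they gave the same strand for 95.2%. For 8062 named loci coordinates are shared with another row, and 7 of the 10 genes have a row and coordinates of their own. Where a symbol had several rows, the highest was used. Genes named beside the 10 are up to 3 with the highest mean FPKM per list, paralogues and loci that start in a window. EPHB3, ASCL2, CYP1A2, FGB and COL1A2 were named after their values were seen. The median used log2(FPKM + 0.01). Steps were tested on simulated data. Scripts ran in Python 3.11.15 with matplotlib 3.10.9, pandas 2.3.3, scipy 1.17.1 and numpy 2.4.6.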

Additional observations from a re-analysis of the deposited data

How the results depend on the processing

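Of 32 alternatives over 6 results, 26 left the value within its limits, which were 1.5 times for counts, the 95% interval for the share and the SD of both runs for the median. The median log2(FPKM + 0.01) of the 10 genes was 4.72, and it moved to 4.77 with a pseudocount of 1, 4.80 over genes at a mean FPKM of at least 0.1 and 4.64 without GLUL. With the loci plus 50 kb, the share of marked positions was 3.65%, and 5 genes had H3K9me3. Within the loci alone, 2 genes had H3K27me3, LGR5 and LEF1. The number of expressed genes was 9 under every alternative on the 10 genes. At least 3 "T" were found at 5 genes within 1 kb of the TSS and at 7 within 5 kb. Chosen after the data were seen were "T" over the whole window, "T" that do not overlap each other, and the 7 genes with a row and coordinates of their own, of which 7 were expressed and 6 had at least 3 "T". A stricter peak threshold could not be set, since the lists give no heights. No paired analysis was possible because each assay has 1 library.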
